A study of Rattus norvegicus with 72 samples.

Results

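The genes described here act in the G2 phase and in mitosis, from the cyclins that switch on the mitotic kinase Cdk1 to the proteins that separate the 2 daughter cells. They were chosen by name: a list of 53 gene symbols, of which 47 had a probe set with that single symbol on the rat array and 6 (Ndc80, Kif4a, Tpx2, Ckap2, Anln and Ncapg) had none. The array held 14217 single-symbol genes in all, and the probe set with the highest mean signal stands for each gene.

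Cells about to divide build up cyclin A2 and the B-type cyclins, which activate Cdk1, and then condense their chromosomes, attach them to a spindle through kinetochores, pass the spindle checkpoint and cleave. Most of these genes are transcribed in G2 and are little transcribed in resting cells, so their RNA is widely read as a measure of dividing cells. In the mammary gland, epithelial cells divide in pregnancy and into early lactation, and adult liver and adipose tissue hold few dividing cells.

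Gene expression was measured in rats on 72 Affymetrix arrays in 15 groups. Mammary gland, liver and adipose tissue came from 4 groups of rats (5 arrays per tissue and group): pregnant at standard gravity, pregnant in hypergravity, lactating at standard gravity and lactating in hypergravity, which means more than normal weight. In the array codes the first letter is the tissue (M, L and A in that order), the number the rat and the last letter the gravity (S for standard, H for hypergravity), so 20 rats gave all 3 tissues. Mammary glands of pregnant rats made up another 12 arrays, with 4 from microgravity (FLT), 4 from a flight control group (FDS) and 4 from a vivarium control group (VIV). Strain, age, day of pregnancy or lactation, gravity level and length of exposure were not given in the sources used here, nor whether each letter from A to D in the microgravity codes stands for its own animal, and the p-values of that set measure only the spread between arrays.

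Values are log2 signals, so 1 unit is a 2-fold difference, and array medians lay between 4.32 and 4.56 (4.87 and 5.02 in the microgravity set, which is compared only within itself). Left out were 2 arrays whose markers went against their labels: M210H had the adipocyte signal of fat and A210H the milk protein signal of mammary gland, with milk protein means of 3.10 in M210H against 12.07 to 12.24 in the rest of its group and of 12.27 in A210H against 3.01 to 3.14. The lactating hypergravity groups of mammary gland and adipose tissue therefore hold 4 arrays. On other arrays, hepatocyte markers were raised in M52S and M56H and skeletal muscle markers in M50H, M212H, VIVA, VIVC, A48S and A217H, by over 2 log2 units from their set's median. The milk protein mean was raised likewise in L55H (5.43), L214S (5.31) and A55H (5.47). Results were recomputed without the first 8 of these arrays, and those with liver or adipose arrays also without the last 3.

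The regulatory sequences of the genes were set out first, because cell cycle genes of this kind are known to be held silent in resting cells through a cell cycle homology region (either TTTGAA or the variant TTCGAA) and switched on through CCAAT boxes. RefSeq promoters of the GRCr8 assembly were found for 41 of the 47 genes, and the 250 bases before the start were searched on both strands. A homology region motif was present in 20 of 41 (48.8%), against 17.3% of 27457 promoters of all genes. At least 1 CCAAT box was present in 31 of 41 (75.6%, against 34.3% of all), and both motifs in 19 of 41 (46.3%, against 6.22% of all). The E2F motif, searched as TTTGGCGC and as TTTCCCGC and known from S phase genes, was in 0 of 41, against 1.26% of all promoters and 6 of 22 promoters of the S phase list described below. Of the 19 windows with both motifs 14 overlapped the gene's own annotated span, with all 250 bases inside it for Mki67, Birc5, Kif23 and Smc2. Windows of some other genes, such as Aurka and Ttk, lay inside it too, and this overlap was not counted for all promoters. A match says only that these letters occur in the window.

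Printed below are the promoters of 4 genes with both motifs, taken in order of their fold change in hypergravity lactation among genes whose window lay outside their own annotated span, 5′ to 3′ along the gene with both motifs in capitals. On the opposite strand a CCAAT box reads ATTGG and the first homology motif is read in reverse as TTCAAA. Top2a (chr10:84473094-84473343, minus strand) encodes topoisomerase IIα, which untangles sister chromosomes. Cks2 (chr17:13727520-13727769, minus strand) encodes a small subunit that binds Cdk1. Smc4 (chr2:155550012-155550261, plus strand) encodes a condensin subunit, and Cdc20 (chr5:137255800-137256049, minus strand) the mitotic activator of the anaphase-promoting complex.
Top2a: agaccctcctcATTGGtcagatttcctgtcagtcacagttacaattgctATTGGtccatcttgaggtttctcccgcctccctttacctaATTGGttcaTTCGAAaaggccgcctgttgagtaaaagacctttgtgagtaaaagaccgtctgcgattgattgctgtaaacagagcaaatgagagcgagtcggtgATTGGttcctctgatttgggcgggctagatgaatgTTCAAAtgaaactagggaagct
Cks2: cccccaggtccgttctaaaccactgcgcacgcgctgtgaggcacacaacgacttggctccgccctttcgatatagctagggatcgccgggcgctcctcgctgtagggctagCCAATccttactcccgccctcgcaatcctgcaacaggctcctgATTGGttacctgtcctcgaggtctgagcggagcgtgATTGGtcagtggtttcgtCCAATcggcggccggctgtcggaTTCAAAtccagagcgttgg
Smc4: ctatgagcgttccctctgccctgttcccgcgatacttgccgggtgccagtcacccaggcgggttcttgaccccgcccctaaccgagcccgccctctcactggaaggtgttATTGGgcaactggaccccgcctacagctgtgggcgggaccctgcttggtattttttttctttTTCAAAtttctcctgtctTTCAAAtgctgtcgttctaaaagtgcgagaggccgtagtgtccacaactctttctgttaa
Cdc20: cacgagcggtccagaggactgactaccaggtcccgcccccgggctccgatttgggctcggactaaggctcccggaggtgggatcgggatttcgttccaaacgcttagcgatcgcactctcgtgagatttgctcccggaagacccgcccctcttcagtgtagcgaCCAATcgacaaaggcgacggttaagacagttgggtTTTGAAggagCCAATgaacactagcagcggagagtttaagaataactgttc
Top2a and Cks2 each hold 4 CCAAT boxes, and their nearest homology region lies 22 and 19 bases before the start. Smc4 has 1 CCAAT box and Cdc20 has 2. Over the 41 genes, the median log2 fold change of hypergravity against standard gravity in lactating mammary gland was -2.70 for the 19 genes with both motifs and -2.44 for the other 22.

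Averaged over the 47 genes, the lactating mammary gland at standard gravity had the highest log2 signal of the 12 groups of the 3 tissues and the lactating gland in hypergravity lay below both pregnant groups. In whole tissue, fewer dividing cells and less RNA per dividing cell cannot be told apart. The mean was 7.19 ± 0.76 (SD, n = 5) in lactation at standard gravity, 4.77 ± 0.54 (n = 4) in lactation in hypergravity, 5.77 ± 0.26 (n = 5) in pregnancy at standard gravity and 5.80 ± 0.20 (n = 5) in pregnancy in hypergravity. By array, the lactating standard group read 6.76 in M201S, 8.31 in M202S, 6.53 in M214S, 7.63 in M216S and 6.70 in M219S. The lactating hypergravity group read 4.31 in M203H, 4.38 in M206H, 4.92 in M212H and 5.46 in M217H. The lowest array of the first group lay above the highest of the second. The genes moved together within groups: M202S was the highest array of its group for 40 of the 47 genes and M217H for 37. The median correlation of deviations from group means over 1081 gene pairs was 0.60 in mammary gland (19 arrays), 0.45 in adipose tissue, 0.33 in liver and 0.28 in the microgravity set. These pairs share arrays, and array quality was not measured apart from them.

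**Figure D1:**
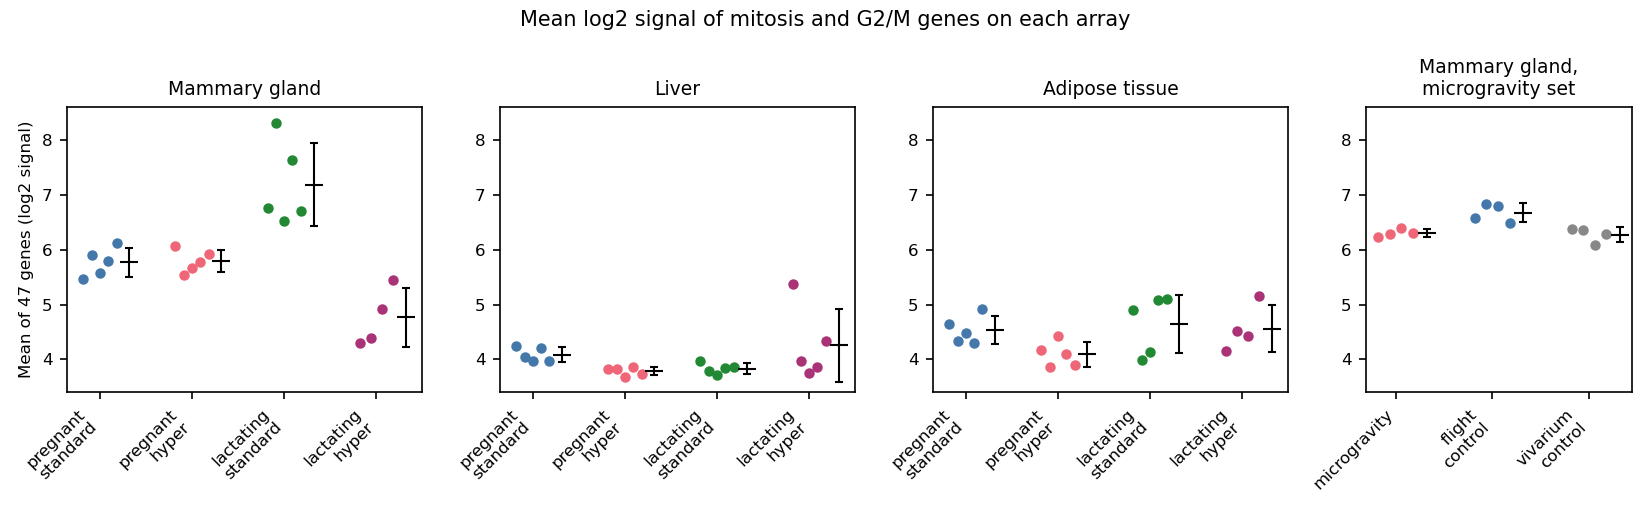
Mean log2 signal of the 47 genes (y axis) on each array (points, spread sideways only for visibility), with the group mean and SD beside them, for the 4 groups of each tissue and the 3 groups of the microgravity set. Lactating mammary arrays sit between 6.53 and 8.31 at standard gravity and between 4.31 and 5.46 in hypergravity. Levels of the microgravity set are not comparable with the other panels.

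The step from pregnancy to lactation at standard gravity was tested first. With limma, 36 of the 47 genes rose in the mammary gland and 0 fell (adjusted p under 0.05), where 16.8% of all probe sets rose. Of these, 30 had every lactating array above every pregnant array, against 12.6% of all probe sets. The median log2 fold change was 1.46, against -0.01 over all probe sets.

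Mki67, the proliferation marker that coats mitotic chromosomes (GRCr8 in RefSeq, as for all positions here: chromosome 1, 199926150 to 199952847), read 7.32, 7.88, 7.72, 7.69 and 8.08 in pregnancy (M42S, M44S, M48S, M52S and M57S) and 9.05, 10.81, 8.59, 9.96 and 8.59 in lactation (M201S, M202S, M214S, M216S and M219S). All 5 lactating arrays lay above all 5 pregnant ones, with M202S and M216S highest, and Mki67 rose 3.17-fold (log2 fold change 1.67, SE 0.37, limma adjusted p = 0.0020). Top2a (chromosome 10, 84441954 to 84473093) read 8.18, 7.99, 7.65, 8.29 and 8.55 in pregnancy and 10.30, 11.56, 10.03, 10.85 and 10.43 in lactation. The lactating arrays again lay apart, and Top2a rose 5.67-fold (SE 0.41, limma adjusted p = 0.00017).

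Among the cyclins and Cdk1 regulators 8 of 9 rose. Cyclin B1 (Ccnb1, chromosome 2, 33646252 to 33655225) was at 5.04 ± 0.54 in pregnancy and 7.43 ± 0.81 in lactation (5.24-fold), Cdca3, which promotes entry into mitosis, rose 3.77-fold and Cdk1 2.90-fold. Cks2 rose 2.67-fold. Foxm1, the transcription factor known to drive G2/M genes, did not pass, at 4.48 ± 0.25 in pregnancy and 4.06 ± 1.01 in lactation. Foxm1 had 2 probe sets, and the brighter one, used here, is dim, with a mean of 3.39 over 60 arrays of the 3 tissues. Its 5 lactating arrays read 3.34, 5.78, 3.48, 4.08 and 3.60, so 4 of them lay under the lowest pregnant array (4.25) and M202S above the highest (4.90).

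Of 7 mitotic kinases and chromosomal passenger proteins 6 rose, led among groups that did not overlap by the kinases Pbk (log2 fold change 2.10) and Melk (4.02-fold), Birc5 (survivin, 3.90-fold) and the kinase Plk1 (2.61-fold). Of 7 checkpoint and anaphase-promoting genes 5 rose: Ube2c, the ubiquitin-conjugating enzyme of that complex, rose 5.91-fold, the checkpoint kinase Ttk 4.31-fold, Bub1b 3.63-fold and Mad2l1 3.09-fold. Of 9 centromere and kinetochore genes 7 rose, among them the centromere proteins Cenpw (4.93-fold), Cenpk (4.39-fold) and Cenpu (3.45-fold) and the kinetochore linker Spc25 (4.21-fold).

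Of 6 spindle genes 4 rose: Hmmr 4.55-fold, the bipolar spindle motor Kif11 4.05-fold, Nusap1 2.75-fold and Kif2c 2.35-fold. Of 5 cytokinesis genes 4 rose, with the RhoA activator Ect2 at 5.14-fold, the midzone bundler Prc1 at 2.98-fold and Racgap1 at 2.64-fold. Besides Foxm1, 10 genes did not pass by limma. Their log2 fold changes were 1.36 for Bub1 (adjusted p = 0.054), 0.58 for Cdc20 (0.058), 0.92 for Smc2, 0.79 for Cenpe, 0.78 for Kif23, 0.72 for Aurka, 0.71 for Dlgap5, 0.29 for Cenpf, 0.17 for Kif20b (SE 0.86) and -0.28 for Smc4. Calls of Ccnb2, Cdca8, Pttg1, Cenpn and Nusap1 are lost when 1 array is left out, with the highest adjusted p (0.13) for Ccnb2 without M216S, and the same 5 calls are lost without the arrays carrying markers of another tissue (adjusted p = 0.053 for Nusap1 to 0.11 for Ccnb2).

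Smc4 and Kif20b, a kinesin of late mitosis and cytokinesis, varied widely among pregnant arrays. Smc4 read 8.40, 10.32, 9.60, 9.65 and 10.82 in pregnancy at standard gravity and 10.27, 8.34, 8.72, 10.08 and 11.53 in pregnancy in hypergravity (M50H, M55H, M56H, M59H and M60H), so its pregnant range enclosed its lactating range of 8.98 to 10.17. Kif20b ran from 3.65 in M55H to 8.72 in M60H. M60H also had the highest lymphocyte marker mean of the pregnant arrays (6.84, the others 4.24 to 5.10, over 11 markers), and its part in these values was not tested.

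In hypergravity the same step went the other way. With limma 23 of the 47 genes fell from pregnancy to lactation, where 14.6% of all probe sets fell, and 1 rose, where 14.6% rose. Lactating arrays lay wholly below pregnant ones for 15 genes, against 8.68% of all probe sets. The median log2 fold change was -1.04, against -0.04 over all probe sets. Without the arrays carrying markers of another tissue, 12 fell and 1 rose, and leaving out M206H left 14 that fell.

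Cenpu, a subunit of the inner kinetochore network (chromosome 16, 52448446 to 52471662), read 6.68, 5.89, 6.49, 6.84 and 7.77 in pregnancy and 3.48, 4.01, 3.77 and 4.62 in lactation (M203H, M206H, M212H and M217H). The groups did not overlap, and it fell 6.81-fold (log2 fold change -2.77, SE 0.40, limma adjusted p = 0.00012). Cyclin A2 (Ccna2) fell 4.97-fold, Smc4 4.39-fold, Kif23, a midzone kinesin, 4.33-fold, Cdk1 3.46-fold, Cdca3 3.25-fold, Foxm1 2.99-fold, Mki67 2.91-fold, Melk 2.84-fold, Ttk 2.83-fold, Cenpk 2.56-fold, Nuf2 2.24-fold, Aurkb 2.23-fold, Pbk 2.17-fold and Cenpn 2.06-fold. The calls of Aurkb and Cenpn are lost without M59H or M60H respectively (adjusted p = 0.083 and 0.12). Without the arrays carrying markers of another tissue, 5 of these named genes did not pass: Cdk1 (adjusted p = 0.055), Cenpk (0.060), Ttk (0.091), Aurkb (0.12) and Cenpn (0.13). Top2a was 1.49-fold lower and Ccnb1 1.61-fold lower, with adjusted p of 0.36 and 0.33, and neither passed. The gene that rose was Cks1b, a Cdk-binding subunit that also serves the ubiquitin ligase of p27 (1.79-fold, SE 0.23 on the log2 scale, limma adjusted p = 0.012), but not when only the 2 groups were fitted (adjusted p = 0.065).

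Between gravities, pregnant glands gave no call: 0 of the 47 genes passed with limma, where 0.00322% of all probe sets passed. Unadjusted p was under 0.05 for 0 of the 47 and for 1668 of all probe sets. Log2 fold changes of hypergravity against standard gravity lay between -0.37 and 0.41, with a median of 0.03. Cks1b (-0.25, SE 0.22) and Cenpk (0.40, SE 0.36) had the smallest p, Mki67 was at 0.31, Cdk1 at 0.29, Ccnb1 at -0.13 and Top2a at -0.01.

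In lactation, 41 of the 47 genes were lower in hypergravity by limma, where 4.94% of all probe sets were, and 0 were higher. The hypergravity arrays lay wholly below the standard ones for 41 genes, against 7.51% of all probe sets. Unadjusted p was under 0.05 for 46 genes and for 6084 of all probe sets. The median log2 fold change was -2.67, a 6.39-fold difference, against 0.01 over all probe sets. Keeping the exchanged array M210H gave 43 genes, leaving out the arrays with other-tissue markers 37 (Cdc20, Kif20b, Smc2 and Smc4 no longer passed, at adjusted p of 0.063 to 0.10), and leaving out any 1 array 37 to 43.

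Cenpu read 7.82, 9.46, 8.06, 7.51 and 8.03 in lactation at standard gravity against 3.48, 4.01, 3.77 and 4.62 in hypergravity. It had the largest change of the list, 18.5-fold lower (log2 fold change -4.21, SE 0.40, limma adjusted p = 2.9e-06), and its hypergravity mean of 3.97 is under the array medians. Ttk, the kinase that starts the spindle checkpoint (chromosome 8, 93632678 to 93672664), read 6.77, 8.79, 6.64, 7.33 and 6.88 against 3.06, 3.33, 3.13 and 3.86. It was 15.3-fold lower (SE 0.37, limma adjusted p = 2.7e-06), and no pregnant array was as low either, the lowest being 4.26 in M60H. Detection calls were not used, so folds against means this low are approximate.

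Mki67 was at 9.40 ± 0.97 at standard gravity and at 5.75, 6.09, 6.69 and 7.47 in hypergravity. It was 7.47-fold lower (limma adjusted p = 9.3e-05), and M217H lay within the pregnant range, where M203H, M206H and M212H lay below it. Top2a read 6.84, 6.53, 8.24 and 8.59 in hypergravity, 8.49-fold lower than at standard gravity (limma adjusted p = 0.00014), with M212H and M217H inside the pregnant range. Cdk1 read 5.25, 4.42, 5.22 and 6.80 (8.23-fold lower), and Ccnb1 read 3.05, 3.52, 4.74 and 5.61 (9.20-fold lower). M217H was thus the highest of its group for these 4 genes, and it carried no excess of muscle or hepatocyte markers.

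**Figure D2:**
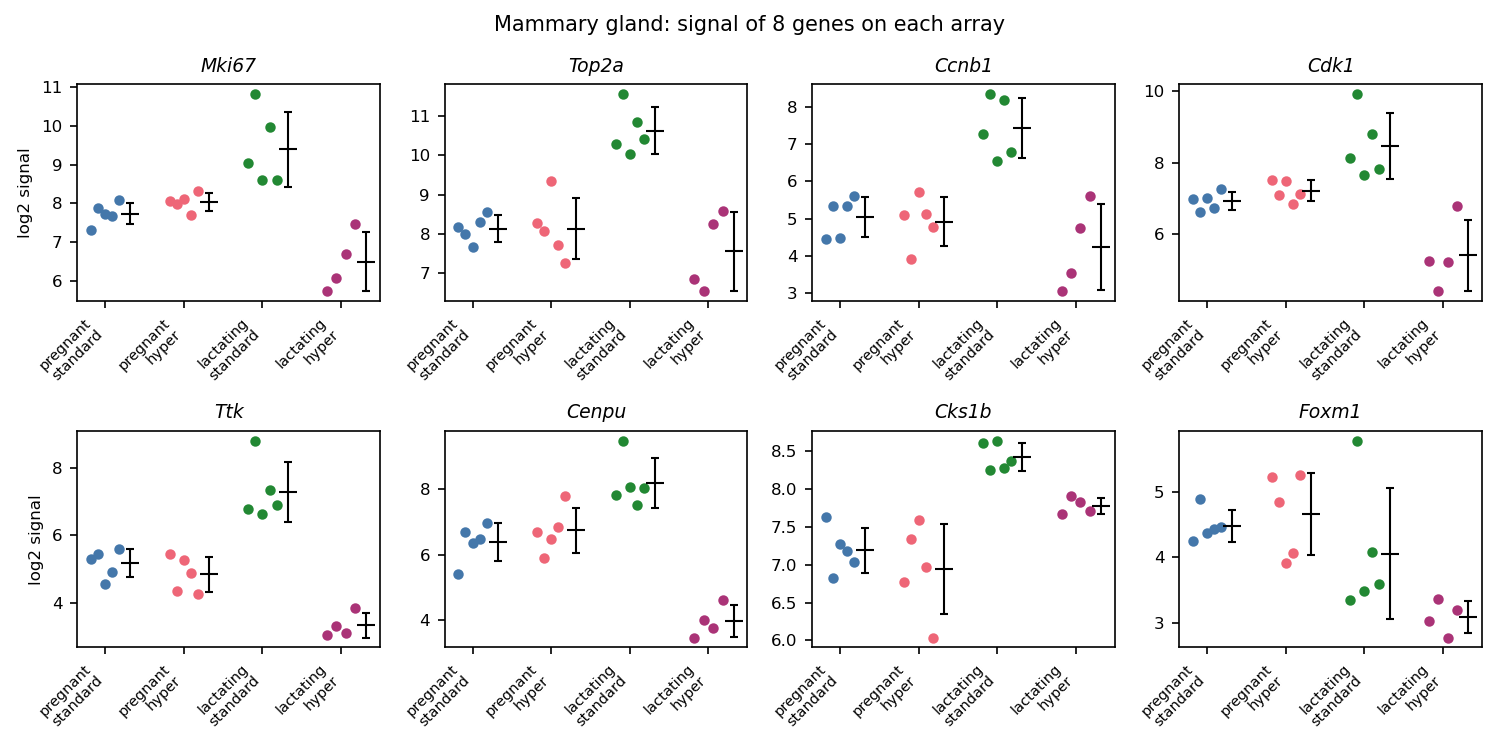
Log2 signal (y axis, its range set per gene) of 8 genes in the mammary gland on each array (points), with group mean and SD beside them, for pregnant and lactating rats at standard gravity and in hypergravity. For Ttk and Cenpu all 4 lactating hypergravity arrays lie below every other array, Cks1b stays between 7.68 and 7.91 there, and 1 lactating standard array (M202S, 5.78) stands above the others for Foxm1.

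By role, 7 of 9 cyclins and Cdk1 regulators were lower. Ccna2 was 12.9-fold lower (3.90 ± 0.76 against 7.59 ± 1.05) and Cdca3 9.20-fold, besides Ccnb1 and Cdk1 above. The 2 that did not pass were Foxm1 (1.96-fold lower, adjusted p = 0.16) and Cks1b (1.57-fold lower, adjusted p = 0.098). Cks1b read 8.61, 8.25, 8.64, 8.28 and 8.38 at standard gravity and 7.68, 7.91, 7.83 and 7.71 in hypergravity, so its groups did not overlap although its call did not pass.

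Of the mitotic kinases and passenger proteins 5 of 7 were lower, among them Melk (log2 fold change -3.46), Pbk (8.88-fold), Aurkb, the kinase of the passenger complex (6.51-fold), and Birc5 (6.33-fold). Aurka (2.30-fold lower, adjusted p = 0.073) and Cdca8 (borealin, 2.27-fold lower, adjusted p = 0.051) did not pass. All 7 checkpoint and anaphase-promoting genes were lower, with Bub1 8.88-fold, Ube2c 8.03-fold, and Pttg1 (securin, which holds back the protease separase) 5.12-fold. The call of Cdc20 (1.94-fold lower) is lost without M203H (adjusted p = 0.061).

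Of the centromere and kinetochore genes 8 of 9 were lower, among them Spc25 9.84-fold, Cenpk 8.49-fold and Cenpw 6.39-fold. Cenpf, a large kinetochore protein, did not pass (2.18-fold lower, adjusted p = 0.10). Of the spindle genes 5 of 6 were lower, with Nusap1 10.5-fold, Kif20b 8.47-fold, Hmmr 8.29-fold and Kif11 6.15-fold, but Kif20b not without M206H (adjusted p = 0.11). The spindle protein gene Dlgap5 did not pass (1.30-fold lower, adjusted p = 0.69), with 5.40, 5.33, 5.23 and 5.80 in hypergravity, all above its lowest standard gravity array (4.95) and below M202S and M216S. All 5 cytokinesis genes were lower, from 2.08-fold for Kif20a to 8.48-fold for Ect2, with Racgap1 at 7.82-fold, Kif23 at 6.49-fold and Prc1 at 5.89-fold. All 4 genes of chromosome structure were lower, but the calls of Smc4 (3.54-fold) and Smc2 (3.11-fold) are lost without M203H and M206H respectively (adjusted p = 0.11 and 0.15).

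**Figure D3:**
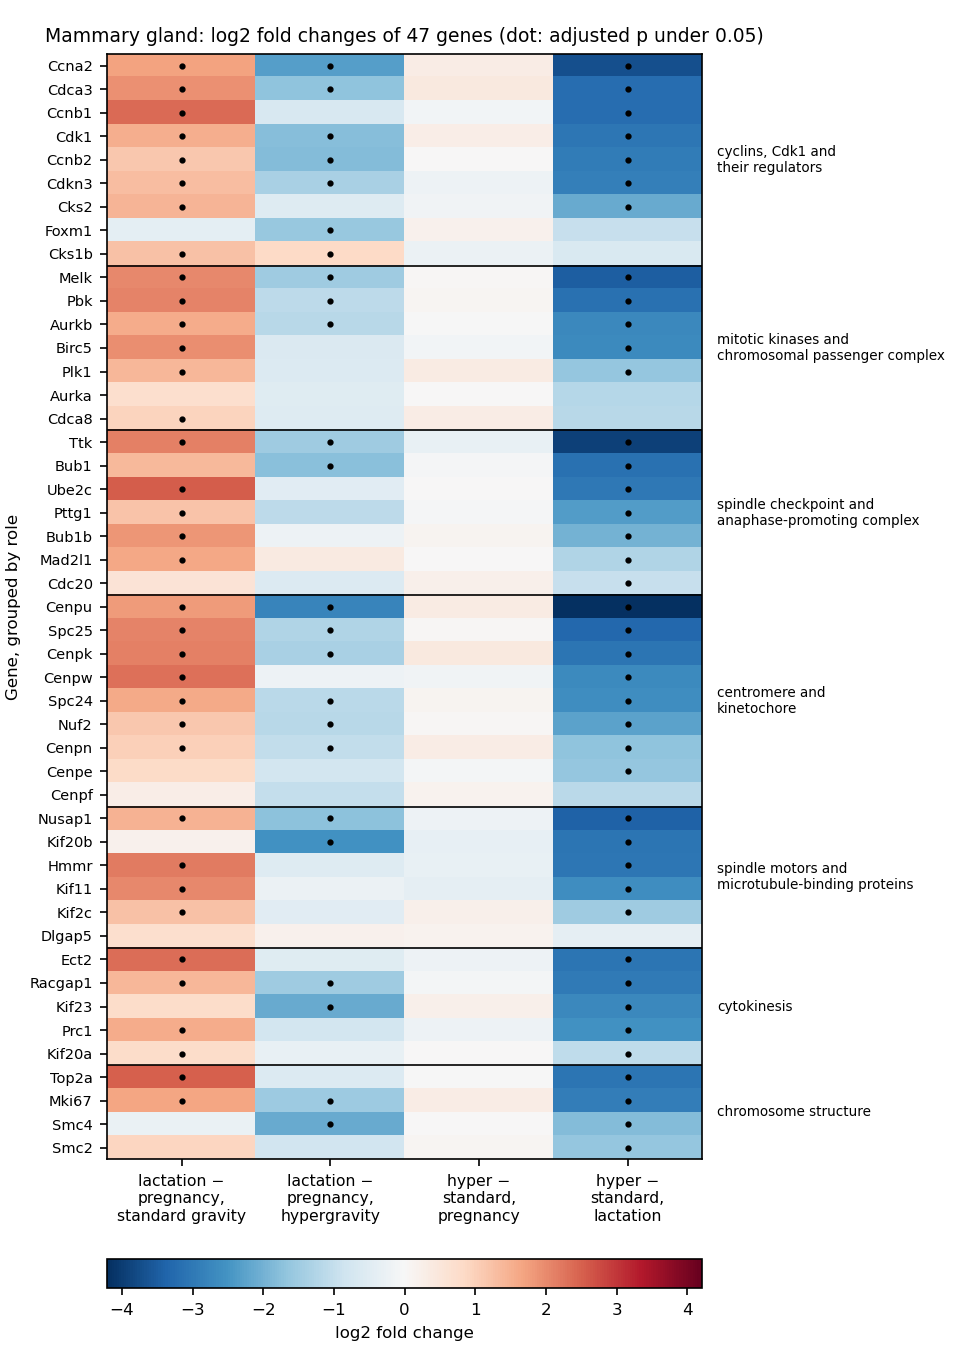
Log2 fold changes (colour; red higher, blue lower in the first-named group) of the 47 genes (rows, grouped by role) in 4 mammary gland comparisons (columns). A dot marks an adjusted p under 0.05. The columns hold 36, 24, 0 and 41 dots, and the fourth is blue throughout.

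The difference between the gravity effects was tested itself. The hypergravity effect in lactation minus that in pregnancy was called negative for 34 of 47 genes (limma), where 1.85% of all probe sets were, with a median of -2.65. Cenpu (-4.56, SE 0.55), Ccna2 (-4.01, SE 0.69), Cdca3 (-3.62), Ttk (-3.61), Melk (-3.51) and Cenpk (-3.49) had the largest such differences on the log2 scale. Mki67 was at -3.21, Cdk1 at -3.33, Top2a at -3.08 and Ccnb1 at -3.07, all called. Leaving out 1 array gave 25 to 35 genes and leaving out arrays with other-tissue markers 19, Ccnb1 not among them (adjusted p = 0.062).

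The 13 genes with no call for this difference were Foxm1, Cks1b, Aurka, Cdca8, Cdc20, Mad2l1, Cenpe, Cenpf, Kif20b, Dlgap5, Kif20a, Smc2 and Smc4. Their estimates were all below 0, from -0.40 for Cks1b to -2.73 for Kif20b.

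Other parts of the cell cycle were read from lists of genes that are not among the 47. In hypergravity lactation, where 4.94% of all probe sets were lower and 4.49% higher, 17 of 22 DNA replication and S phase genes were lower and 0 higher, led by the licensing factor Cdt1 (7.23-fold), Uhrf1, which keeps DNA methylation through replication (6.60-fold), and the replicative helicase subunit Mcm5 (6.56-fold). Their median log2 fold change was -1.45. Of 15 G1 cyclins, kinases and E2F genes 6 were lower, with E2f8 11.9-fold, E2f1 4.99-fold and cyclin E1 (Ccne1) 3.41-fold, and Cdk4 was 1.68-fold higher. Of 17 CDK inhibitors and quiescence genes 4 were higher, with the growth arrest genes Gadd45b (2.79-fold) and Gadd45a (2.71-fold) and cyclin G2 (Ccng2, 2.09-fold). Cdkn2c and Rbl1, which encodes p107, were lower. The mean over these 17 genes overlapped between the lactating groups, at 6.97 to 7.09 by array in hypergravity and 6.90 to 7.14 at standard gravity. In pregnancy it was lower at both gravities, at 6.54 to 6.75 in hypergravity and 6.64 to 6.73 at standard gravity.

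Of 6 genes of the MuvB complex and its Myb partners, a complex known to bind the homology region, 4 were lower, among them Mybl1 (2.41-fold), Lin52 (2.40-fold) and Lin54 (1.96-fold). Of 16 anaphase-promoting complex core and related genes only the separase gene Espl1 passed (2.87-fold lower). From pregnancy to lactation at standard gravity, where 16.8% of all probe sets rose and 17.3% fell, the S phase list had 12 genes that rose, led by Uhrf1 (6.21-fold), Mcm6 (4.09-fold) and the thymidine kinase Tk1 (3.41-fold), and 1 that fell (Mcm7, 2.30-fold). E2f8 (3.74-fold), E2f1 (3.64-fold) and E2f2 (3.34-fold) also rose, while Myc fell 3.76-fold. M202S stood apart here: its S phase list mean was 8.21, against 6.68 to 6.87 in the other lactating standard arrays. Pregnant standard arrays read 6.18 to 6.34 and lactating hypergravity arrays 5.40 to 5.67. The G1 and E2F list mean was 6.90 in M202S and 6.04 to 6.28 in the rest of its group. Fold changes of these lists were not recomputed without M202S. In hypergravity, where 14.6% of all probe sets fell, 10 of the 22 S phase genes fell from pregnancy to lactation and 0 rose. The falls were led by the chromatin assembly factor Chaf1a (6.01-fold), Mcm7 (3.91-fold) and Rfc4 (3.72-fold). In the same comparison Gadd45a rose 7.85-fold and Rb1 4.76-fold. Both belong to the list of CDK inhibitors and quiescence genes, whose mean was higher in lactation than in pregnancy at standard gravity too.

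Markers of cell types also differed between the lactating groups. Of 13 luminal epithelial markers 7 were higher in hypergravity and 0 lower (4.49% of all probe sets higher, 4.94% lower), and their mean was 8.94 to 9.40 by array against 8.14 to 8.36 at standard gravity. Of 14 macrophage markers 4 were higher and 0 lower (8.13 to 8.77 against 7.48 to 7.87). Of 6 milk protein genes 2 were lower (12.07 to 12.24 against 12.53 to 12.73). Of 11 lymphocyte markers 0 passed (3.75 to 4.09 against 3.70 to 5.75), of 11 endothelial markers 1 was lower, and of 17 fibroblast and matrix markers 1 was higher and 1 lower. From pregnancy to lactation at standard gravity 8 of 13 luminal, 8 of 14 macrophage and 1 of 11 lymphocyte markers fell, against 17.3% of all probe sets, and 3 of 6 milk protein genes rose, against 16.8%. M202S, the array with the highest mitotic signal, had a lymphocyte mean of 3.81, and only M219S, at 5.75, stood above its group. The part of these cell types in the mitotic signal was not tested. Skeletal muscle markers were raised in M212H, and without it 38 of the 47 genes were lower.

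Liver gave few calls. At standard gravity 0 of the 47 genes changed with lactation (limma), where 0.622% of all probe sets were called. Unadjusted p was under 0.05 for 4 of the 47 and for 3382 of all probe sets. Among the 47, Cenpn (-0.48, SE 0.16) and Cks2 (0.84, SE 0.31) had the smallest p. Top2a was at -1.64 on the log2 scale, Cdk1 at -0.44, Ccnb1 at -0.24 and Mki67 at 0.33, and none of these passed. In hypergravity 2 rose with lactation, where 3.23% of all probe sets were called in either direction: Spc24 (log2 fold change 1.30, SE 0.34, limma adjusted p = 0.036) and Birc5 (1.23, SE 0.33, adjusted p = 0.042). Hypergravity gave 0 calls in pregnancy (0.103% of all probe sets called), 0 in lactation (0.406%) and 0 for the difference of these effects (0.126%). In the same order, unadjusted p was under 0.05 for 2, 14 and 14 of the 47 genes. Of all probe sets, 2507, 4238 and 3500 were under that cut. In lactation the median log2 fold change was 0.32, with Cdk1 (0.85, SE 0.26, limma adjusted p = 0.18) and Spc24 (1.00, SE 0.34, adjusted p = 0.22) of smallest p, Top2a at 1.41, Ccnb1 at 0.85 and Mki67 at 0.24.

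The highest liver means were those of L203H and L217H, both lactating in hypergravity. L217H, at 4.33, lay above every liver of the other groups (3.67 to 4.25). L203H had a mean of 5.37 over the 47 genes, where the other lactating hypergravity livers lay between 3.75 and 4.33, and it was the highest of its group for 35 genes. Its Ccnb1 signal was 6.31, against 3.14 to 3.26 in the other 4, and its Top2a signal 8.62, against 3.62 to 6.35. Spc24 read 6.17, 4.22, 3.33, 4.63 and 4.67 in lactating hypergravity livers (L203H, L206H, L210H, L212H and L217H) and 3.03 to 3.46 in pregnant ones. Without L203H the count of 2 was 1 and the median of hypergravity against standard gravity in lactation was 0.15. The count of 2 was 0 without any of the pregnant arrays L50H, L56H, L59H or L60H, 5 without L210H, 3 without L212H, and 1 without any of L55H, L44S, L48S, L217H, L201S, L202S, L216S or L219S. Without L55H and L214S, which carried milk protein signal, the count of 2 was 0 (adjusted p = 0.054 for Birc5 and 0.088 for Spc24). L212H had an unusual spread of signals. Its upper quartile over all probe sets was 6.53, against 6.84 to 7.19 in all other arrays outside the microgravity set. The part of this in the liver values was not tested.

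Adipose tissue gave 0 calls by limma in all 5 comparisons. The shares of all probe sets called were 0.00322% for lactation against pregnancy at standard gravity, 0% for the same in hypergravity, 0% for hypergravity in pregnancy, 0% for hypergravity in lactation and 0% for the difference of effects. The numbers of the 47 genes with an unadjusted p under 0.05 were 2, 5, 7, 2 and 3. Of all probe sets, 1852, 1141, 1283, 709 and 1055 were under that cut, in the same order. Group means over the 47 genes were 4.54 ± 0.25 (pregnant, standard), 4.09 ± 0.22 (pregnant, hypergravity), 4.64 ± 0.54 (lactating, standard) and 4.56 ± 0.42 (lactating, hypergravity). At standard gravity in lactation the arrays spread from 3.99 in A202S and 4.14 in A214S to 4.90, 5.09 and 5.09 in A201S, A216S and A219S. In adipose tissue the smallest p were those of Kif2c (-0.35, SE 0.15) and Pbk (0.46, SE 0.22) for lactation against pregnancy at standard gravity, and those of Cenpu (-0.31, SE 0.14) and Spc24 (0.42, SE 0.19) for hypergravity against standard gravity in lactation. In that last comparison Mki67 was at 0.18, Ccnb1 at 0.19, Cdk1 at -0.28 and Top2a at -0.33.

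**Figure D4:**
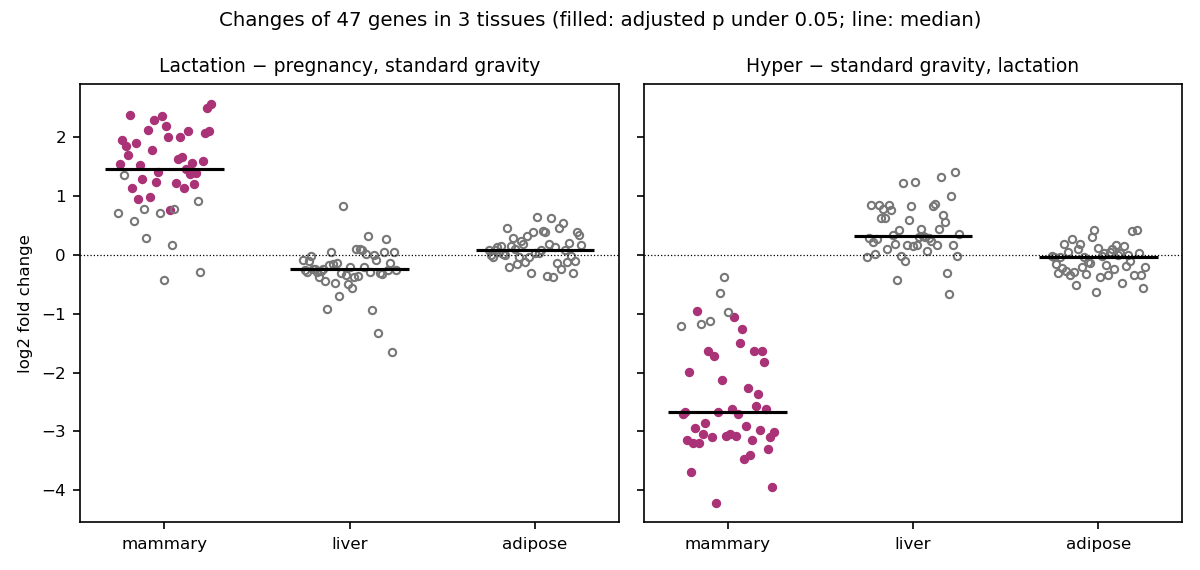
Log2 fold changes (y axis) of the 47 genes (points, spread sideways only for visibility) in mammary gland, liver and adipose tissue, for lactation against pregnancy at standard gravity (left) and hypergravity against standard gravity in lactation (right). Filled points passed at adjusted p under 0.05, and lines are medians: 1.46, -0.24 and 0.09 on the left, and -2.67, 0.32 and -0.04 on the right.

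The differences between tissues were tested directly. In lactation at standard gravity all 47 genes were higher in mammary gland than in liver (19.6% of all probe sets) and all 47 higher than in adipose tissue (14.8%), with median log2 differences of 3.58 and 2.72. Mki67 was at 9.40 ± 0.97 in mammary gland, 4.66 ± 0.32 in liver and 5.68 ± 0.95 in adipose tissue. In pregnancy 37 were higher in mammary gland than in liver (25.1%) and 1, Cks1b, was lower (25.3%), while 29 were higher than in adipose tissue (20.9%). Cks1b was at 7.19 ± 0.30 in pregnant mammary gland and at 7.93 ± 0.39 in pregnant liver (log2 difference -0.74, SE 0.21, limma adjusted p = 0.0032). Cenpu led both lactating comparisons, at 4.91 log2 units above liver and 4.59 above adipose tissue. The 9 genes with no call against pregnant liver were Plk1, Birc5, Cdca8, Cdc20, Bub1b, Mad2l1, Cenpk, Cenpw and Spc24, from -0.41 for Mad2l1 to 1.15 for Cenpw.

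The stage effect at standard gravity was larger in mammary gland than in liver for 33 genes (10.6% of all probe sets) and larger than in adipose tissue for 23 (9.23%). Top2a differed from liver by 4.15 log2 units and Ccnb1 by 2.63, both called, while Mki67 (1.34, adjusted p = 0.096) was not. Pbk (2.10) and Ube2c (2.81) had the smallest p against liver, and Spc25 (2.17) and Ube2c (2.38) against adipose tissue. Besides Mki67, the stage effect did not differ from that in liver by a call for Ccnb2, Cks2, Cdkn3, Foxm1, Aurka, Pttg1, Cenpf, Nuf2, Kif20b, Kif20a, Kif23, Smc2 and Smc4, from -0.55 for Smc4 to 2.21 for Cdkn3. The hypergravity effect in lactation was more negative in mammary gland than in liver for 40 genes (2.15% of all probe sets) and than in adipose tissue for 37 (2.26%), with medians of -3.14 and -2.51. Ccnb1 differed by -4.05 from liver and -3.40 from adipose tissue, Cdk1 by -3.89 and -2.76, Mki67 by -3.14 and -3.08, and Top2a by -4.49 and -2.76, where the difference from adipose tissue did not pass for Top2a (adjusted p = 0.10). Cenpu had the smallest p in both, at -4.20 and -3.89. No call was made against liver for Cks1b, Foxm1, Aurka, Dlgap5, Kif20a, Smc2 and Smc4 (-0.55 to -1.36), nor against adipose tissue for Cks1b, Foxm1, Aurka, Dlgap5, Kif20a, Cdc20, Smc4, Cdkn3, Ect2 and Top2a (-0.51 to -2.76). These comparisons share the mammary arrays. With only the 4 groups compared in the fit, 24 genes differed from adipose tissue.

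In the microgravity set, the flight control had the highest signal. The mean over the 47 genes was 6.30 ± 0.07 in microgravity, 6.67 ± 0.17 in the flight control and 6.28 ± 0.14 in the vivarium control (n = 4 each). By array it read 6.24, 6.28, 6.40 and 6.30 in FLTA to FLTD, 6.57, 6.84, 6.80 and 6.49 in FDSA to FDSD, and 6.38, 6.36, 6.08 and 6.28 in VIVA to VIVD. All 4 flight control arrays lay above the other 8 on this scale. Their array medians were higher too, at 5.02 in FDSD and 4.91 to 4.93 in the others, against 4.87 to 4.88 in microgravity. The vivarium control had array medians of 4.88 to 4.92. Measured from each array's median, FDSD did not lie above FLTC, so the separation was then incomplete.

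Against the flight control, 1 of the 47 genes passed with limma, where 0.367% of all probe sets did. Unadjusted p was under 0.05 for 24 of the 47 and for 4100 of all probe sets. Microgravity arrays lay wholly below for 12 genes, against 3.3% of all probe sets. The median log2 difference was -0.39, against -0.04 over all probe sets. The gene that passed was Kif11, which read 5.31, 5.30, 5.26 and 5.42 in microgravity, 6.25, 6.17, 5.98 and 5.83 in the flight control and 5.38, 5.51, 5.38 and 5.50 in the vivarium control. It was 0.74 log2 units lower than the flight control (SE 0.11, limma adjusted p = 0.017), and the vivarium arrays lay beside the microgravity ones. Mki67 (-0.44), Top2a (-0.40), Ccnb1 (-0.39) and Cdk1 (-0.28) did not pass. The call is lost without any of FLTB, FLTC or FLTD, and 3 genes passed without FDSD. With only those 2 groups in the fit its adjusted p was 0.12.

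Microgravity against the vivarium control gave 0 calls (limma; 0.493% of all probe sets called), with a median of -0.00, as over all probe sets. Unadjusted p was under 0.05 for 5 of the 47 genes and for 2951 of all probe sets. Cenpw and Prc1 (0.36 log2 units higher) had the smallest p, Cenpw being 0.65 log2 units higher (SE 0.14, adjusted p = 0.064), with 6.59, 6.22, 6.58 and 6.47 in microgravity and 5.85, 5.71, 5.63 and 6.06 in the vivarium control. Flight control against vivarium control also gave 0 calls by limma (0.00322% of all probe sets). Unadjusted p was under 0.05 for 29 of the 47 genes and for 2851 of all probe sets. The estimates of all 47 genes were above 0, with a median of 0.40, against 0.03 over all probe sets. Flight control arrays lay wholly above for 13 genes, against 2.35% of all probe sets. Kif11 (0.61, SE 0.11, limma adjusted p = 0.21) and Cenpw (0.75, SE 0.14, adjusted p = 0.23) had the smallest p.

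Of the other cell cycle lists, 1 gene was called in this set. It was Cdkn1a, which encodes the CDK inhibitor p21, from the list of 17 CDK inhibitors and quiescence genes. It was at 9.20 ± 0.21 in microgravity, 7.71 ± 0.32 in the flight control and 7.15 ± 0.30 in the vivarium control (SD, n = 4 each). The microgravity arrays lay wholly above both controls, 2.81-fold higher than the flight control (SE 0.18 on the log2 scale, limma adjusted p = 0.0068) and 4.13-fold higher than the vivarium control (adjusted p = 0.0015). Of 22 DNA replication and S phase genes 0 passed against either control (limma). Unadjusted p was under 0.05 for 8 against the flight control and 1 against the vivarium control. Of all probe sets, 4100 and 2951 were under that cut.

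The lymphocyte marker mean over 11 genes was highest in FDSB, at 8.07, and read 5.05, 5.90 and 5.72 in FDSA, FDSC and FDSD, 4.64 to 5.85 in microgravity and 4.67 to 4.92 in the vivarium control. Flight control and microgravity ranges overlapped. By limma 0 of the 11 markers passed in either comparison with the flight control. Unadjusted p was under 0.05 for 6 against microgravity and 8 against the vivarium control. Of all probe sets, 4100 and 2851 were under that cut. Leaving out FDSB, the array with the highest lymphocyte mean, the medians were -0.34 for microgravity against flight control and 0.35 for flight control against vivarium control. The part of lymphocytes in these differences was not tested. The vivarium arrays VIVA and VIVC carried muscle markers, and without them Kif11 did not pass (adjusted p = 0.055).

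**Figure D5:**
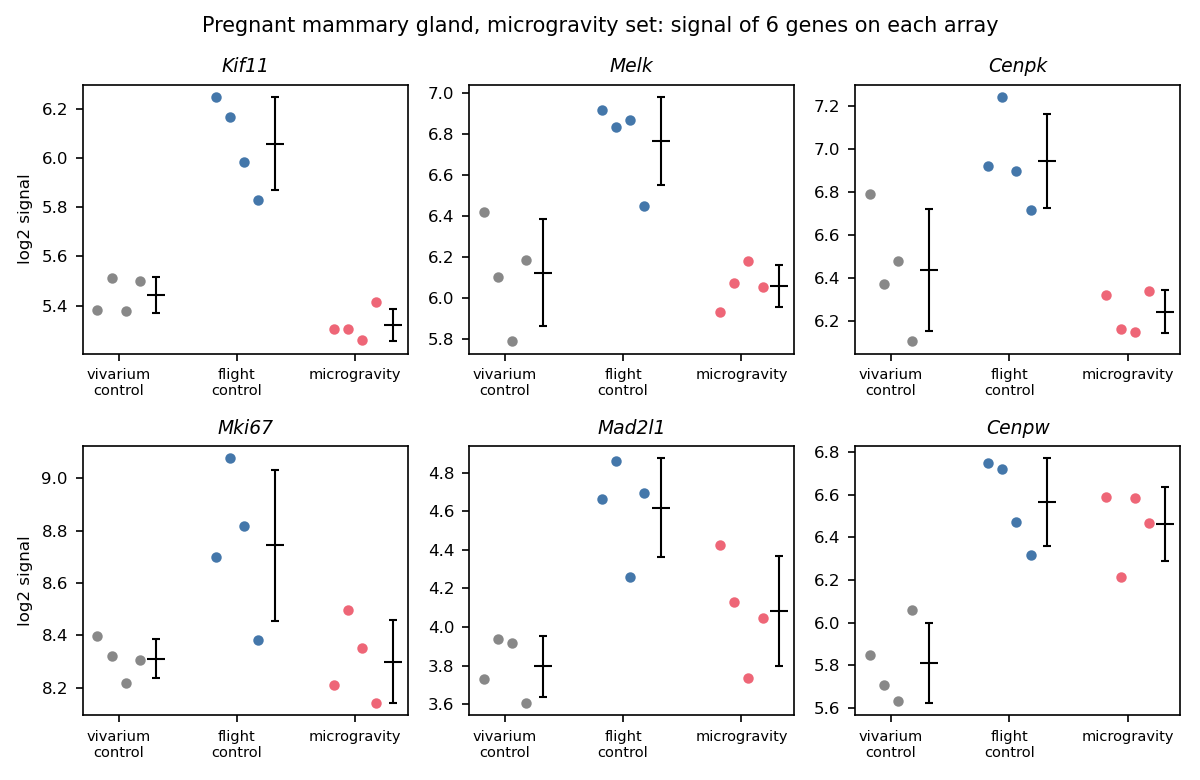
Log2 signal (y axis, its range set per gene) of 6 genes on each array of the microgravity set (points), with group mean and SD beside them, in the vivarium control, the flight control and microgravity (4 arrays each). Kif11 lies between 5.83 and 6.25 in the flight control and between 5.26 and 5.51 in both other groups, while Cenpw is lowest in the vivarium control.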

How the data were processed

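The deposited table holds log2 signals for 31042 probe sets on 72 arrays, made by the authors with RMA per the submitters' processing notes, which give no version. RNA came from TRIzol extraction (adipose tissue: RNeasy Lipid) and was amplified with a NuGEN Ovation Biotin kit, per the labels. Probe sets were named from the platform annotation (20826 with 1 symbol, 436 with several, 9780 with none). The genes and lists were chosen with earlier results of these data known.

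Tests used lmFit and eBayes of limma 3.58.1 under R 4.3.3, with a mean per group and 1 fit per tissue, 1 for the 3 tissues (58 arrays) and 1 for the microgravity set. P-values are two-sided and Benjamini-Hochberg adjusted over all 31042 probe sets. Group values are mean ± SD, and SE is limma's on the log2 scale. Only the mammary fit was tried on simulated data, for hypergravity against standard gravity in lactation. The simulated noise was independent between probe sets, unlike that of these genes.

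Genes named are, per role and comparison, up to 4 called genes of largest change whose groups did not overlap (in contrasts of 4 groups, by adjusted p), genes not called where 15 or fewer, all called where under 10, otherwise up to 2 of smallest p, up to 3 per direction for other lists, and always Mki67, Top2a, Ccnb1 and Cdk1. Promoters overlapping the gene's own annotated span (14 of 19) were not printed. Deviations from group means correlated weakly between same-rat arrays of different tissues (median 0.13, 0.12 and 0.16). Of 19 pairs each, 13, 13 and 14 were above 0.1, so the rat was a random block in 1 alternative. Medians for other rats (-0.03, -0.04 and -0.03) are pushed below 0 by subtracting the group means and are no separate baseline. Alternatives also changed scaling, weights, filter, probe set choice, arrays and groups fitted.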

Additional observations from a re-analysis of the deposited data

Results flagged for a closer look

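Effects differed between conditions by a direct test for 34 genes (hypergravity effect in lactation against that in pregnancy, mammary gland), for 40 and 37 genes (hypergravity effect in lactation, mammary gland against liver and adipose tissue) and for 33 and 23 genes (stage effect at standard gravity, the same pairs).

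Among 75 group values of the 4 genes named throughout and of the mean over the 47, 3 held an array whose gap to the next exceeded Dixon's 95% limit, where chance gives about 1 in 20. Ccnb1 was 6.31 in the liver L203H, with 3.14 to 3.26 in the rest of its group. Mki67 was 6.53 in the adipose array A56H, with 4.71 to 5.19 in the rest. That array also had the highest lymphocyte marker mean of its group (6.38, the others 3.81 to 4.10), and its part in the value was not tested. Ccnb1 was 4.08 in the adipose array A57S, with 3.41 to 3.53 in the rest.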

How the results depend on the processing

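The balance of higher and lower calls was not reversed in any alternative run. Genes called in the main fit kept their sign in the alternatives other than leaving out 1 array, where signs were not checked gene by gene. Signs of genes not called were not followed, and differences near 0 can change sign with the scaling. The mammary counts of 36, 0 and 41 genes (stage at standard gravity, hypergravity in pregnancy, hypergravity in lactation) stayed within 1.5 times. Without arrays carrying other-tissue markers, chosen after seeing the data, 13 genes were called for the hypergravity stage comparison, 19 for the difference of hypergravity effects and 0 for microgravity against flight control. Also leaving out L55H, L214S and A55H, likewise chosen, gave 0 for the hypergravity liver stage comparison and moved no other count by over 1.5 times. With only the groups compared in the fit, counts were 1 and 0 for the liver stage comparisons (standard, hypergravity), 1 for hypergravity in pregnant liver, 24 for the hypergravity effect against adipose tissue, and 0 and 1 for microgravity against flight and vivarium control. Array weights gave 1 for the last, and median centring 1 for the hypergravity liver stage comparison. Microgravity against flight control gave 0 with the mean of all probe sets of a gene and 0 with a replicate block on the letters A to D, whose arrays did not deviate together (no pair above 0.1). The replicate block on rats moved no count between tissues by over 1.5 times. Without dim probe sets, which left 14 genes in liver, 40 in the microgravity set and 22 across tissues, counts were 1 (hypergravity liver stage), 4 and 1 (microgravity against flight and vivarium control), 22, 21, 18 and 15 against liver (lactation, pregnancy, hypergravity effect, stage effect) and 22, 12, 15 and 10 against adipose tissue, with fewer genes tested. Leaving out 1 array gave 15 to 26 genes for the hypergravity stage comparison in mammary gland, 0 to 1 and 0 to 5 for the liver stage comparisons, 0 to 2 for hypergravity in lactating liver, 0 to 2 for its difference from pregnancy, and 0 to 3 and 0 to 1 for microgravity against flight and vivarium control. In liver the highest counts came without L210H. Median centring moved all differences between mammary gland and liver by 0.11 in lactation and 0.14 in pregnancy. It moved the share of calls that were higher from 55.3% to 44.2% and from 49.8% to 37.5%, and for microgravity against flight control from 73.7% to 88.9%. Why counts moved was not tested, also where the fit held fewer genes or arrays. The number of arrays, and signals near the low end, limit precision.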
